A study of Homo sapiens with 6 samples.

Results

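The 6 genes described here encode enzymes of the mevalonate arm, the stretch of cholesterol synthesis that turns acetyl-CoA into farnesyl diphosphate before squalene is made: ACAT2, HMGCS1, PMVK, MVD, IDI1 and FDPS. They were chosen by gene symbol, taking each probe set whose annotation named one of them and no other gene, which gave 10 of the 54613 probe sets tested and 6 of the 21298 genes with a symbol of their own. HMGCS1 had 2 probe sets, IDI1 had 4 and the other genes had 1 each. RNA came from Huh7 cells, an established human hepatocellular carcinoma line, grown in DMEM with 10% fetal bovine serum in each of 3 groups. Cells received 5 µM of a statin to deplete cholesterol, 120 µg/ml native LDL (nLDL) to enrich it, or vehicle as control, for 24 h. Each group had 2 arrays of the Affymetrix U133 Plus 2.0 type, which the labels call biological replicates, and each value is a log2 level per probe set. All 3 groups were of 1 cell line and 1 time point.

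The mevalonate arm runs in a fixed order. Cytosolic ACAT2 joins acetyl-CoA units into acetoacetyl-CoA, and HMGCS1 adds a further acetyl group to give HMG-CoA, which is then reduced to mevalonate, the step that statins block. Mevalonate kinase (MVK) and then PMVK add phosphates to it. MVD removes a carboxyl group to give isopentenyl diphosphate, IDI1 converts this into its isomer dimethylallyl diphosphate, and FDPS joins these units into farnesyl diphosphate, the precursor of squalene and of the lipid anchors on prenylated proteins. In liver cells the genes of cholesterol synthesis are known targets of SREBP2, a membrane-bound transcription factor that is released when sterols in the endoplasmic reticulum are low and held back when they are high. SREBP2 is known to act at such promoters together with NF-Y, which binds CCAAT boxes, and Sp1, which binds GC boxes.

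Promoter windows are shown for the members because SREBP2 and its partners are known to act close to the start of these genes. RefSeq windows of build GRCh38.p14, which run from 250 bases before to 50 bases after an annotated start, were matched by symbol for 5 of the 6 genes and gave 8 windows. No window was matched for ACAT2. One window is printed for each of the 5 genes, the one with the most CCAAT matches where a gene had several, 5′ to 3′ on the strand of the gene, at chr5:43313363-43313662 (minus strand) for HMGCS1, chr1:154936670-154936969 (minus strand) for PMVK, chr16:88663042-88663341 (minus strand) for MVD, chr10:1048837-1049136 (minus strand) for IDI1 and chr1:155308616-155308915 (plus strand) for FDPS. Capitals mark CCAAT or its reverse complement ATTGG, and a relaxed form of the sterol regulatory element, TCACNCNAC, on either strand.
HMGCS1: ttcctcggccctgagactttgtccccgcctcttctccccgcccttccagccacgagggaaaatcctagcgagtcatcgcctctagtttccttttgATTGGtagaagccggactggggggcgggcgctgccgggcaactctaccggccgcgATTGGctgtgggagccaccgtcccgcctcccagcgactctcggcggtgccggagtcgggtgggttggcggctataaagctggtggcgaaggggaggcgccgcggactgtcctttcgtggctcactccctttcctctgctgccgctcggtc
PMVK: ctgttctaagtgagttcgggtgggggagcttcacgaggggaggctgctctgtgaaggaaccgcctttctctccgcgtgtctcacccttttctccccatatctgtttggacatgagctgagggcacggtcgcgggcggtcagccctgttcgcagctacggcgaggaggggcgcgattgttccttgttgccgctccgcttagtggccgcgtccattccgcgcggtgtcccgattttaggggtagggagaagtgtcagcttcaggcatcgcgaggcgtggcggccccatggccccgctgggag
MVD: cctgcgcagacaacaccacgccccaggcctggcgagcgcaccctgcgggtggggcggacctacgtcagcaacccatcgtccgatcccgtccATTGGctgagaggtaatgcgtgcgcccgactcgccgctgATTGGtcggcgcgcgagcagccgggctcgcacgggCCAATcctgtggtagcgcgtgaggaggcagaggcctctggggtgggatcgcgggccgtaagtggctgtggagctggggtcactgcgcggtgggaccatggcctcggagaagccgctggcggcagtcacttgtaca
IDI1: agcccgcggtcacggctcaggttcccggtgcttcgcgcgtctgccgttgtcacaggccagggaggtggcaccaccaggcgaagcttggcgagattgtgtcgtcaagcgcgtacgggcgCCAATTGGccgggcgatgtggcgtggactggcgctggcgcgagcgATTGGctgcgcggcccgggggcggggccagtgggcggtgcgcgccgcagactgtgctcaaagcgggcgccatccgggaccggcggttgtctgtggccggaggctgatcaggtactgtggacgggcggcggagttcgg
FDPS: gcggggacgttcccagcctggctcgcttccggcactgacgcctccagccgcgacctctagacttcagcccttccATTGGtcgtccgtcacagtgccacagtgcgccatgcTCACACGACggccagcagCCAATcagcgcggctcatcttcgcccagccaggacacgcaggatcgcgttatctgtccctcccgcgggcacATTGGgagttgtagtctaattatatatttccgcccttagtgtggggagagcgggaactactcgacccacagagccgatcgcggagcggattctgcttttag

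The CCAAT pentamer, searched on both strands, was present in at least 1 window of HMGCS1, MVD, IDI1 and FDPS and absent from that of PMVK. HMGCS1 and IDI1 each also had a window without it. The windows of HMGCS1 overlap in part, as do 2 of those of IDI1, so the 8 windows are not all separate sequences. In the printed windows its first base lay at -155 and -100 from the start in HMGCS1, at -159, -120 and -85 in MVD, at -132, -129 and -87 in IDI1, and at -176, -122 and -51 in FDPS. The first pair in IDI1 is a single palindrome, CCAATTGG, read once on each strand. Of the 8 member windows 5 held the pentamer, and 34.6% of all 35116 windows of this length in the RefSeq table held it, with 10.8% holding 2 or more matches. The relaxed sterol element occurred once among the members, as TCACACGAC at -140 in FDPS, between a pair of CCAAT boxes, and in 2.55% of all windows. Its stricter form TCACNCCAC was in none of the 8 windows and in 1.13% of all windows. GGGCGG or CCGCCC, the core of the GC box, was in all 8 member windows, PMVK included, and in 45.0% of all windows. The motifs were picked with the windows known, and a match describes letters in these windows, not binding.

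**Figure D1:**
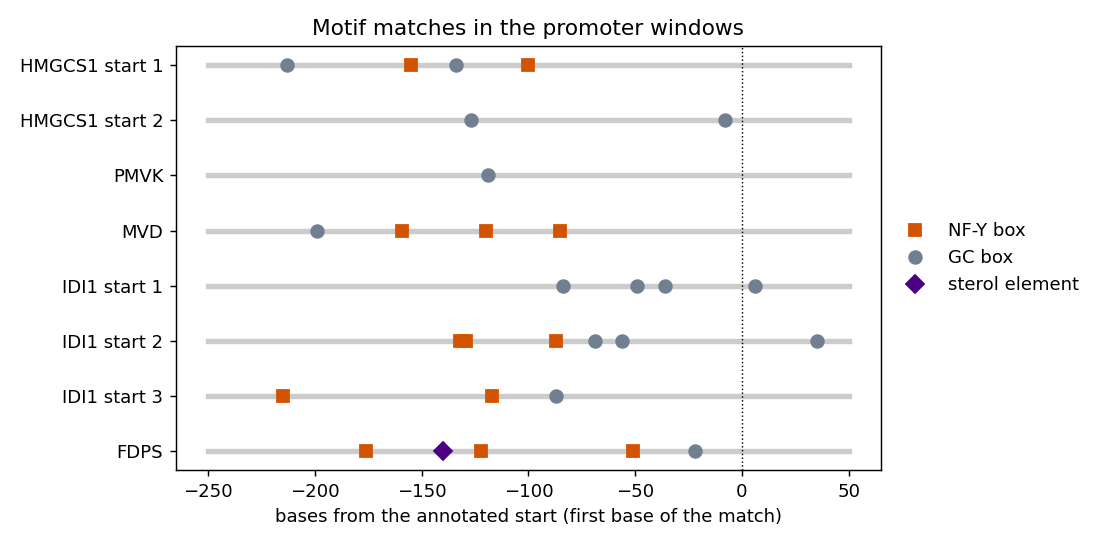
Matches to 3 motifs in the 8 RefSeq promoter windows of 5 genes, with the distance of the first base of each match from the annotated start in bases on the x axis and one grey line per window. Squares (CCAAT) lie upstream of the start in 5 windows, circles (GGGCGG) occur in all 8, and the diamond (TCACNCNAC) occurs only in FDPS.

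At the array level the 6 genes stood in the same order in each case: at the brightest probe set of every gene, both statin arrays lay above both control arrays and both nLDL arrays lay below them. This order held for 6 of 6 genes and 7 of 10 member probe sets, and for 2.84% of all probe sets tested. Averaged over the 6 genes, each centred on its own mean, the log2 levels were 0.22 and 0.38 in statin-treated cells, -0.33 and -0.30 in nLDL-treated cells and 0.01 and 0.03 in control cells. Hybridization efficiency differs between probe sets, so levels are compared within a probe set and not between genes.

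ACAT2 (209608_s_at), the cytosolic thiolase that opens the pathway, had log2 levels of 12.05 and 12.11 in statin-treated cells, 11.54 and 11.52 in nLDL-treated cells and 11.84 and 11.82 in control cells. The 3 groups did not overlap, and arrays of one group differed by at most 0.06. HMGCS1, the cytosolic HMG-CoA synthase, had levels of 11.88 and 12.29 with statin, 11.15 and 11.22 with nLDL and 11.65 and 11.73 in control at its brighter probe set (221750_at). At its other probe set (205822_s_at) the levels were 8.18 and 8.83 with statin, 7.38 and 7.69 with nLDL and 8.23 and 7.97 in control. Both probe sets placed nLDL lowest. The first statin array lay inside the control range at the dimmer probe set, and statin replicate 2 exceeded statin replicate 1 by 0.41 and 0.65 at the brighter and dimmer probe set. Over all probe sets the median gap between the statin arrays was 0.11 and its 90th percentile was 0.31, so the statin level of HMGCS1 was among the less repeatable ones.

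PMVK (203515_s_at), which adds the second phosphate to mevalonate, had log2 levels of 9.13 and 9.31 in statin-treated cells, 8.97 and 9.00 in nLDL-treated cells and 9.07 and 9.03 in control cells. Its groups were separate but close, with the nLDL and control arrays all between 8.97 and 9.07. MVD (203027_s_at), the decarboxylase, had levels of 7.72 and 8.00 with statin, 7.21 and 7.36 with nLDL and 7.55 and 7.63 in control. The groups of MVD did not overlap, and the statin arrays were 0.28 apart.

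IDI1, the isomerase, was read by 4 probe sets that did not behave alike. The brightest (208881_x_at) had log2 levels of 12.29 and 12.30 in statin-treated cells, 11.47 and 11.42 in nLDL-treated cells and 11.80 and 11.83 in control cells. Next in brightness, 204615_x_at had 12.04 and 12.06 with statin, 11.28 and 11.23 with nLDL and 11.63 and 11.60 in control. These 2 probe sets gave the same order and the tightest statin arrays of the group, each pair 0.02 apart. At 242065_x_at the levels were 6.70 and 6.53 with statin, 6.60 and 6.54 with nLDL and 6.61 and 6.52 in control, so all groups overlapped. The dimmest, 233014_at, had 5.97 and 5.92 with statin, 6.03 and 6.07 with nLDL and 6.23 and 6.30 in control, and there both treated groups lay below control. On these arrays the suffix _x_at marks probe sets whose probes may also match other transcripts, and which transcript each IDI1 probe set measured was not tested. FDPS (201275_at), which makes farnesyl diphosphate, had log2 levels of 12.19 and 12.23 in statin-treated cells, 11.61 and 11.62 in nLDL-treated cells and 12.08 and 12.08 in control cells. In FDPS the nLDL arrays stood well below control and the statin arrays slightly above it.

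**Figure D2:**
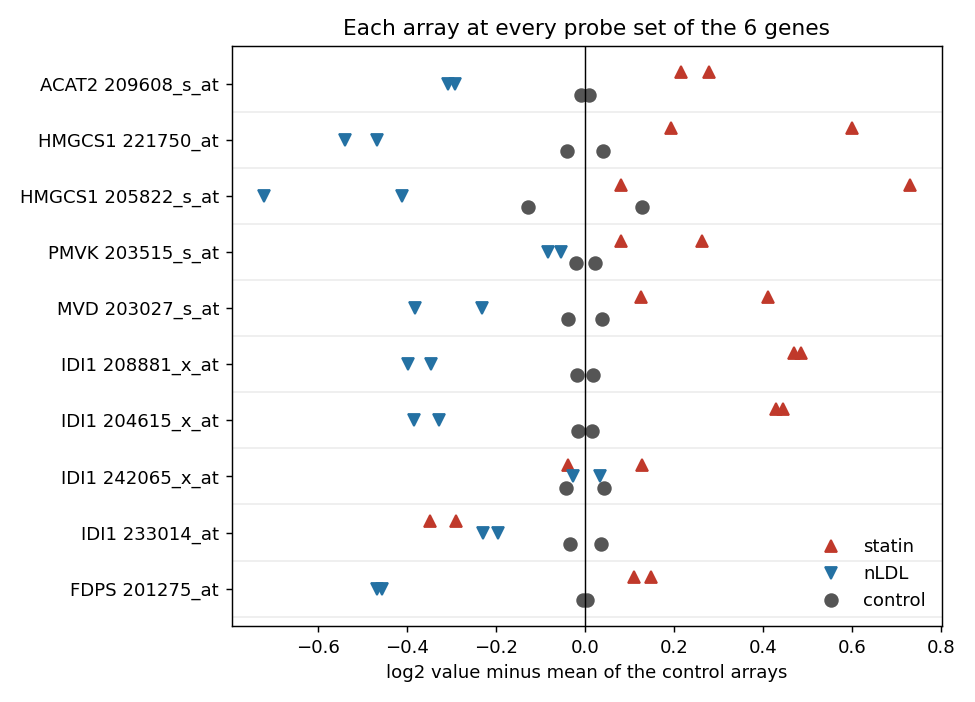
Log2 level of each array minus the mean of the 2 control arrays (x axis) at all 10 probe sets of the 6 genes, with triangles up for statin, triangles down for nLDL and circles for control. Statin arrays lie right of control and nLDL arrays left of it at 7 of 10 probe sets. At HMGCS1 205822_s_at the first statin array lies inside the control range, IDI1 242065_x_at overlaps, and IDI1 233014_at lies left of control in both treatments.

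Statin against control asked what statin, given to deplete cholesterol, did to these transcripts. IDI1 was higher at 2 of its 4 probe sets, by 0.48 log2 (1.39-fold, SE 0.08, limma adjusted p = 0.0283) at 208881_x_at and by 0.44 (1.35-fold, SE 0.08, limma adjusted p = 0.035) at 204615_x_at. Its other probe sets were not called and differed by 0.04 (242065_x_at) and -0.32 (233014_at). The mean over its 4 probe sets differed by 0.16 (limma adjusted p = 0.157) and was not called. The other 5 genes did not pass after adjustment over all probe sets. Of the 6 genes, each at its brightest probe set, 1 was called higher and 0 lower. Of the 10 member probe sets 2 were called higher, against 0.956% of all probe sets called higher and 1.66% called lower. The median difference of the 6 genes was 0.26, against 0.02 for all probe sets.

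Among the genes not called with statin, HMGCS1 differed from control by 0.40 (SE 0.13, limma adjusted p = 0.177) at the brighter probe set and 0.41 (SE 0.22, limma adjusted p = 0.365) at the dimmer one. The brighter one differed by 0.60 without statin replicate 1 and 0.19 without statin replicate 2, and the dimmer one by 0.73 and 0.08. MVD differed by 0.27 (SE 0.11, limma adjusted p = 0.268), ACAT2 by 0.25 (SE 0.08, limma adjusted p = 0.145), PMVK by 0.17 (SE 0.09, limma adjusted p = 0.353) and FDPS by 0.13 (SE 0.07, limma adjusted p = 0.401). Without statin replicate 1 MVD differed by 0.41 and PMVK by 0.26, and without statin replicate 2 MVD differed by 0.13 and PMVK by 0.08. At an unadjusted limma p under 0.05, 3 of the 6 genes were higher (ACAT2, HMGCS1 and IDI1), and 0 lower, against 9.35% and 9.46% of all probe sets. The IDI1 probe set 233014_at differed by -0.32 (limma adjusted p = 0.0878) and was called lower when the dimmest 40% of probe sets were left out (limma adjusted p = 0.0384). No call of IDI1 was kept with any 1 of the 6 arrays left out, while the difference at 208881_x_at stayed at 0.46 to 0.49. Such a fit leaves 1 array in a group, so a lost call cannot tell dependence on that array from a less precise fit.

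nLDL against control asked the opposite question, what added LDL cholesterol did. Under limma no member was called, and neither was any other probe set, so 0.0% of all probe sets were called higher and 0.0% lower. At an unadjusted p under 0.05 limma counted 5 of 6 member genes and 8 of 10 member probe sets as lower, against 2.66% of all probe sets lower and 3.49% higher. All 6 genes had negative differences, with a median of -0.34, against -0.00 for all probe sets. HMGCS1 differed by -0.50 (95% interval -0.82 to -0.19, limma adjusted p = 0.798), FDPS by -0.46 (-0.64 to -0.29), IDI1 by -0.37 (-0.55 to -0.20), MVD by -0.31 (-0.58 to -0.04) and ACAT2 by -0.30 (-0.48 to -0.12). PMVK differed by -0.07 (-0.28 to 0.14), the one interval of the 6 that held 0. Of the other probe sets, HMGCS1 205822_s_at differed by -0.57, IDI1 204615_x_at by -0.36 and IDI1 233014_at by -0.21, whereas IDI1 242065_x_at differed by 0.00. The smallest unadjusted p was that of FDPS, 0.000406, whose limma adjusted p was also 0.798. With a trended and robust prior in limma, 3 of the 6 genes were called lower (ACAT2, IDI1 and FDPS), among 53 probe sets called lower and 5 called higher in all. By the methods' test, at an unadjusted p of 0.05 and a fold of 1.1, 4 of the 6 genes were lower, among 931 probe sets lower and 1051 higher, and after Benjamini-Hochberg that test called 0.

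The 2 treatments were then set directly against each other. Statin-treated cells had higher levels than nLDL-treated cells of 4 of the 6 genes and at 5 of the 10 probe sets, against 1.04% of all probe sets called higher and 1.41% called lower. HMGCS1 was higher by 0.90 (1.87-fold, 95% interval 0.59 to 1.22, limma adjusted p = 0.0229) and IDI1 by 0.85 (1.80-fold, 0.67 to 1.03, limma adjusted p = 0.00509), with 0.79 (1.73-fold, limma adjusted p = 0.00609) at its second probe set. FDPS was higher by 0.59 (1.51-fold, 0.42 to 0.76, limma adjusted p = 0.0138) and ACAT2 by 0.55 (1.46-fold, 0.37 to 0.72, limma adjusted p = 0.0185). At an unadjusted p under 0.05 all 6 genes were higher, against 7.99% of all probe sets higher and 8.31% lower. The median over the 6 genes was 0.58, against 0.01 for all probe sets.

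MVD and PMVK were not called between the treatments. MVD differed by 0.58 (95% interval 0.31 to 0.85, limma adjusted p = 0.0549), a size like that of FDPS and ACAT2 with a larger SE of 0.11. It was called under 5 of the 9 alternative settings that kept both arrays of each compared group. With 1 array left out at a time its difference was 0.43 to 0.72. PMVK differed by 0.24 (0.03 to 0.45, limma adjusted p = 0.242), the smallest of the 6 differences, and by 0.15 without statin replicate 2. With a trended and robust prior PMVK was called (limma adjusted p = 0.0421), as were all 6 genes. In all, that prior called 1858 probe sets higher and 2606 lower, against 566 and 768 in the unaltered limma fit. The dimmer HMGCS1 probe set differed by 0.97 (limma adjusted p = 0.0753), and the IDI1 probe sets 242065_x_at and 233014_at by 0.04 and -0.11 (limma adjusted p = 0.869 and 0.561). Leaving out 1 array at a time, the differences of the 4 called genes kept their direction, from 0.52 for ACAT2 to 1.1 for HMGCS1, but the calls did not all hold. IDI1 (208881_x_at) was called in 4 of the 6 such fits (limma adjusted p 0.0204 to 0.0558), FDPS in 2 (0.0458 to 0.116), HMGCS1 in 1 (0.0326 to 0.16) and ACAT2 in 0 (0.0561 to 0.125). Without nLDL replicate 1 or nLDL replicate 2, none of the 6 genes was called. For this comparison the fits without control replicate 1 and without control replicate 2 were the same fit, since a lone control array adds nothing to the spread. The counts for IDI1 and FDPS therefore include 1 fit 2 times. In the same way, leaving out either nLDL array gave the same fit for statin against control.

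**Figure D3:**
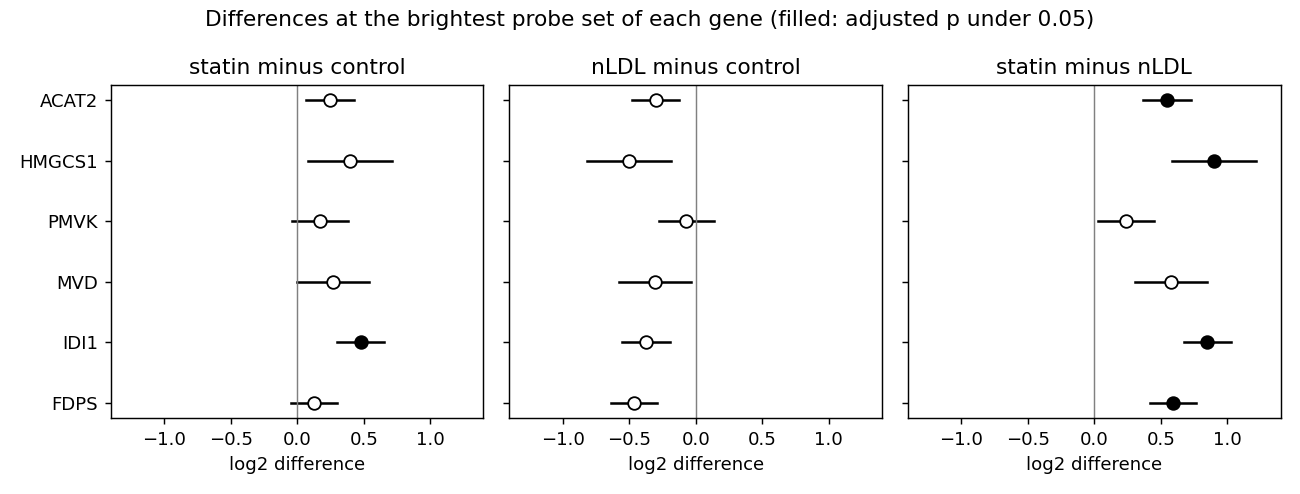
Log2 differences at the brightest probe set of each of the 6 genes, in 3 panels for statin minus control, nLDL minus control and statin minus nLDL, with bars for the 95% interval of the limma fit over 2 arrays a group and filled points for an adjusted p under 0.05. IDI1 alone is filled against control with statin (0.48), no gene is filled with nLDL, and ACAT2, HMGCS1, IDI1 and FDPS are filled between the treatments.

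Whether the genes moved as far with statin as against it with nLDL was tested by adding the 2 differences from control, so that 0 means equal and opposite sizes. No member passed in limma, and 0.0% of all probe sets passed in either direction, with 6.32% higher and 6.04% lower at an unadjusted p under 0.05. The sum was -0.05 for ACAT2, -0.11 for HMGCS1, 0.10 for PMVK, -0.04 for MVD and 0.10 for IDI1, each smaller than its SE (0.13 to 0.23). In FDPS the sum was -0.33 (95% interval -0.63 to -0.03, unadjusted p = 0.035, limma adjusted p = 0.363), the nLDL difference being the larger, and it was called with a trended and robust prior (limma adjusted p = 0.0102). The IDI1 probe set 233014_at, lower than control in both treatments, had a sum of -0.53 (unadjusted p = 0.00525, limma adjusted p = 0.244).

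The rest of the pathway, read for context, comprised, as far as it is reported here, 11 genes and 27 probe sets: MVK in the mevalonate arm, and after it FDFT1 (squalene synthase), SQLE (squalene epoxidase), LSS (lanosterol synthase) and enzymes that act on the way from lanosterol to cholesterol. Between the treatments 11 of these 11 genes were higher with statin, as were 23 of their 27 probe sets, beside 1.04% of all probe sets. Their median difference was 0.73, beside 0.58 for the 6 members. Genes not reported here are outside these counts, which therefore do not describe the whole pathway. DHCR7, which reduces the last-but-one sterol, was higher by 0.92 (limma adjusted p = 0.006) and SQLE by 0.84 (limma adjusted p = 0.00743), at the upper end. MVK, the kinase that acts before PMVK, was higher by 0.51 (limma adjusted p = 0.0328) and EBP, a sterol isomerase, by 0.44 (limma adjusted p = 0.0385), at the lower end. The 4 probe sets not called were SQLE 213562_s_at (0.69, limma adjusted p = 0.0529), EBP 213789_at (0.24), SC5D 215064_at (0.04) and MVK 236686_at (-0.01). FDFT1 (0.75), LSS (0.82), TM7SF2 (0.75), MSMO1 (0.73), NSDHL (0.73), HSD17B7 (0.72) and SC5D (0.69) lay between.

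Against control, 2 of the 11 pathway genes rose with statin at their brightest probe set. These were TM7SF2, a sterol reductase, by 0.63 (limma adjusted p = 0.026) and SC5D, a sterol desaturase, by 0.44 (limma adjusted p = 0.0457), with a median of 0.35 over the 11. Of the 27 probe sets 7 were called higher, beside 0.956% of all probe sets. The others called were FDFT1 210950_s_at (0.44) and 241954_at (0.57), LSS 211018_at (0.48), NSDHL 209279_s_at (0.53) and DHCR7 201790_s_at (0.45). With nLDL none of the 11 was called by limma. At an unadjusted p under 0.05 limma counted 10 as lower, beside 2.66% of all probe sets. The median was -0.40, with DHCR7 at -0.52 and LSS at -0.47 the farthest from control. In the sum of both differences 0 passed, the largest being 0.50 in TM7SF2 (limma adjusted p = 0.317) and 0.18 in SC5D (limma adjusted p = 0.648). Statin arrays above control and nLDL arrays below it, without overlap, were seen in 10 of the 11 genes, as in 6 of the 6 members, beside 2.84% of all probe sets.

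**Figure D4:**
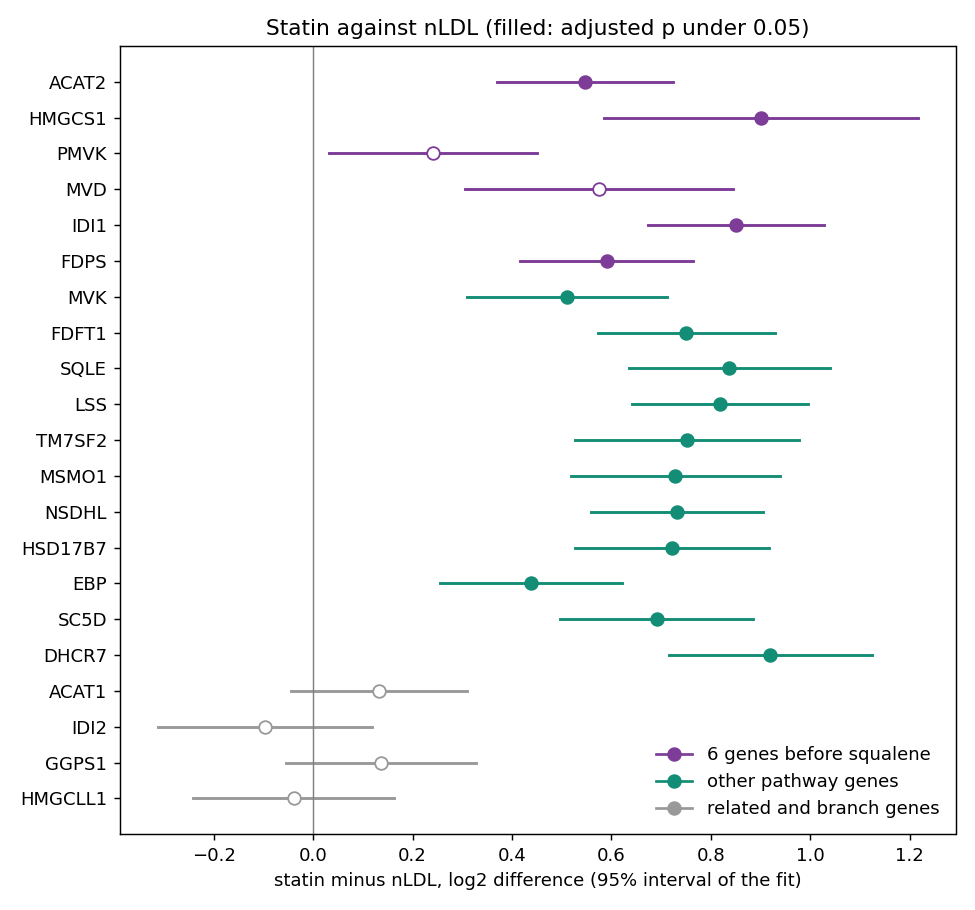
Statin minus nLDL in log2 (x axis) with the 95% interval of the limma fit, 2 arrays a group, for the 6 genes before squalene, 11 other pathway genes and 4 related or branch genes, filled where the adjusted p is under 0.05. PMVK (0.24) and MVD (0.58) are the open points among the members, the 11 other pathway genes are filled, and all 4 related or branch genes are open.

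Among 4 related or branch genes, none was called in any of the 4 comparisons, nor was any of their 9 probe sets. ACAT1, the mitochondrial thiolase, had log2 levels of 10.92 and 10.99 with statin, 10.83 and 10.82 with nLDL and 10.80 and 10.78 in control. Its differences were 0.16 with statin (limma adjusted p = 0.298) and 0.03 with nLDL (95% interval -0.15 to 0.21). Its nLDL arrays thus lay close to control, with an interval that held 0, where those of ACAT2 lay below control. The difference between these 2 genes was not itself tested. GGPS1, which extends farnesyl diphosphate for prenylation, differed by 0.15 with statin (limma adjusted p = 0.365) and 0.01 with nLDL at its brightest probe set (202322_s_at), but by -0.06 and -0.31 at 202321_at. IDI2, a second isomerase gene, and HMGCLL1 were dim, with mean levels under 4.23, the 40th percentile of all probe sets. IDI2 differed by -0.30 with statin and -0.20 with nLDL, and HMGCLL1 by -0.02 and 0.02.

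**Figure D5:**
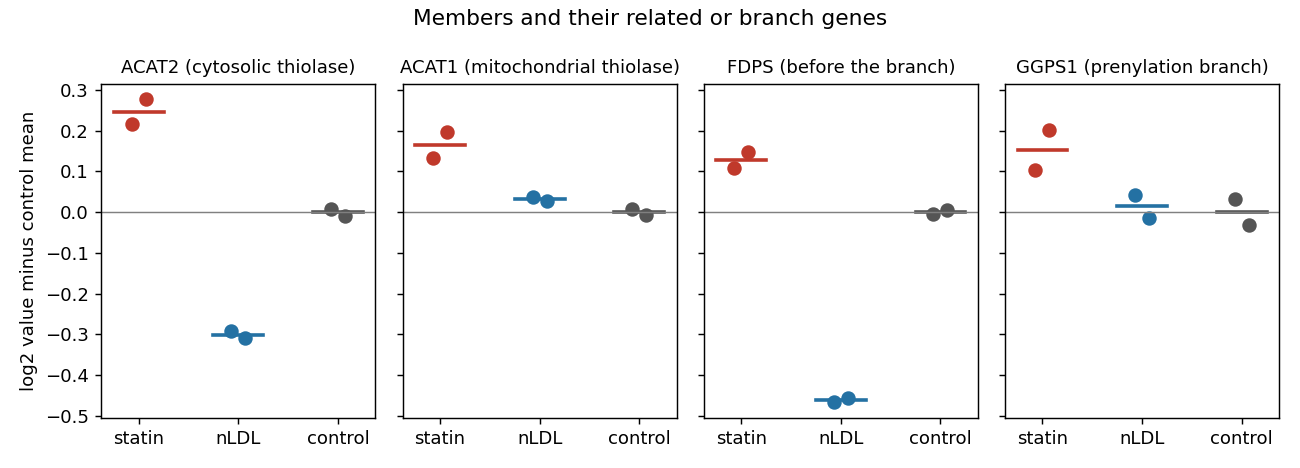
Log2 level of each array minus the control mean (y axis) for ACAT2 and its mitochondrial relative ACAT1, and for FDPS and GGPS1, which uses its product, with points for arrays and bars for group means (2 arrays a group). Each gene is shown at its brightest probe set. The nLDL arrays lie below control in ACAT2 (-0.30 on average) and FDPS (-0.46), and close to it in ACAT1 (0.03) and GGPS1 (0.01). The GGPS1 probe set 202321_at is not shown, and it differed by -0.31 with nLDL.

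The genes whose pattern was most like the mean centred profile of the 6 members were sought among 15271 genes by root mean square distance over the 6 arrays. HSD17B7, an enzyme of the later sterol steps, was nearest at 0.0522 log2, followed by GALNT5 (0.0551), TP53INP1 (0.0556), JUND (0.0562) and VCAN (0.0565). HSD17B7 differed from control by 0.31 with statin and -0.42 with nLDL, and VCAN, an extracellular matrix proteoglycan, by 0.36 and -0.38. GALNT5 (0.36 and -0.21), TP53INP1 (0.25 and -0.25) and JUND (0.37 and -0.21) showed smaller differences with nLDL. Of these 5 genes 1 (VCAN) was also among the 5 with the highest Pearson correlation, where DHCR7 led. All of these likenesses are descriptions over the same 6 arrays.

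As to the arrays themselves, median log2 levels were 4.84 to 4.91. The 11 hepatocyte markers checked, such as ALB, AFP and APOA1, had levels of 11.00 to 14.29 on every array, and none was under the 40th percentile. The 15 markers of blood, endothelial, stromal and bile duct cells spanned 3.37 to 10.97, the upper end being EPCAM, an epithelial adhesion protein. The gap between the 3′ and 5′ control probe sets for ACTB, a measure of RNA integrity, was 2.13 and 1.92 log2 on the statin arrays, 1.62 and 1.54 on the nLDL arrays and 1.63 and 1.64 on the control arrays. For GAPDH this gap was 0.09 and 0.02 with statin, 0.10 and 0.08 with nLDL and 0.08 and 0.07 in control. The ACTB gap thus set the statin arrays apart, and its part in the statin differences was not tested. The arrays measured RNA pooled from all cells of a culture, so a change in the number of cells that express a gene and a change per cell cannot be told apart.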

How the data were processed

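Total RNA was hybridized to U133 Plus 2.0 arrays, 2 per group. The authors normalized the raw data in GeneSpring GX 11.5 by robust multi-array averaging and deposited log2 values per probe set. The number of arrays limits the precision. The deposited annotation table gave the gene symbols, and its 6 value columns were not used because their headers match no sample label. After 62 control probe sets were left out, 54613 of 54675 were tested. Group means were compared two-sided with lmFit and eBayes of limma 3.58.1 (R 4.3.3; 3 residual and 4.08 prior degrees of freedom), with Benjamini-Hochberg adjustment over all probe sets and a threshold of 0.05. The code was tested on simulated data. An exact permutation test of 2 against 2 arrays cannot give a p under 0.333, so none is given. The brightest probe set, by its mean over 6 arrays, stands for a gene. Named were all members and relatives, the pathway genes called or with the 2 largest differences, and the 5 most alike genes. The members and lists were chosen with earlier results of these data known. Some genes of the lists are not reported here and enter no count of them, and CYP51A1 had no probe set of its own. Promoter windows are RefSeq sequences (GRCh38.p14). The alternatives were a replicate block, 3 other normalizations, a filter on dim probe sets, other priors and tests, single arrays left out, and means over a gene's probe sets.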

Additional observations from a re-analysis of the deposited data

How the results depend on the processing

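Of 578 values for member probe sets, or for the mean over a gene's probe sets, under the alternatives, 491 kept their direction and side of the threshold, 46 no longer passed, 23 newly passed and 18 changed sign. Most of the 491 were values that the unaltered limma fit did not call either, so they had no call to lose. All 46 that no longer passed came from the calls of that fit, 2 probe sets with statin against control and 5 between the treatments. No member gene that was called changed sign in the comparison where it was called. The count of member genes higher with statin than control was 1, and became 0 with the replicate block, in a fit of the compared groups alone, with the mean over a gene's probe sets and with the methods' test after Benjamini-Hochberg, 2 with that test unadjusted at a fold of 1.1, and 3 with a trended and robust prior. The member probe sets higher were 2, and became 0 with the block, in the groups alone and with the methods' test after Benjamini-Hochberg, and 4 with the trended prior. 1 member probe set was lower with the dimmest 40% left out and with the methods' test unadjusted. Over all probe sets, those higher with statin, 522, were 280 with the block, 1050 with the dim filter, 1787 with the trended prior, 239 in the groups alone, 0 with the methods' test adjusted and 2900 with it unadjusted. Those lower, 907, were 540, 1695, 3167, 368, 0 and 3291 under the same settings.

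With nLDL against control, where 0 were called, the trended prior called 5 probe sets higher and 53 lower, with 4 member probe sets and 3 member genes lower, and the methods' test unadjusted called 1051 higher and 931 lower, with 6 member probe sets and 4 member genes lower. For statin against nLDL, all probe sets called higher were 566, and became 1034 with the dim filter, 1858 with the trended prior, 207 in the groups alone, 0 with the methods' test adjusted and 2477 with it unadjusted. Those lower were 768, and became 1333, 2606, 251, 2 and 2623. Member probe sets higher, 5, were 8 with the trended prior, 3 in the groups alone and 0 with the methods' test adjusted. Member genes higher, 4, were 2 in the groups alone and 0 with the methods' test adjusted. For the sum of both differences, centring on array medians called 2 higher and 19 lower, the dim filter 2 and 12, and the trended prior 371 and 898, with 1 member probe set and 1 member gene (FDPS) lower.

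Leaving out 1 array at a time gave 9 to 239 higher and 33 to 368 lower with statin against control, with 0 member probe sets and 0 member genes higher in each of the 6 fits. For statin against nLDL it gave 24 to 207 higher and 21 to 251 lower, with 0 to 3 member probe sets and 0 to 2 member genes higher.

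With single arrays left out, IDI1 242065_x_at ranged from -0.039 to 0.13 with statin against control and from -0.041 to 0.13 against nLDL, each below 0 without statin replicate 1, and from -0.040 to 0.045 with nLDL against control, below 0 without control replicate 2 or nLDL replicate 1. Its nLDL difference was -0.0133 after centring on array medians. The sum of both differences at this probe set ranged from -0.038 to 0.13 and was -0.0034 after centring. For MVD the sum ranged from -0.18 to 0.10, and was 0.0264 with quantile normalization repeated and 0.0214 with cyclic loess. For HMGCS1 it ranged from -0.31 to 0.10 at 221750_at and from -0.48 to 0.16 at 205822_s_at, each above 0 without statin replicate 1. It was 0.0022 for ACAT2 with cyclic loess and -0.0754 for IDI1 with the mean over its probe sets. The causes were not tested.

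Same-numbered arrays of different groups did not deviate together (r = 0.02 to 0.09 over 54613 probe sets), so the numbers are not taken to pair the samples. With the replicate block, the IDI1 difference with statin had limma adjusted p of 0.053 and 0.0607 at its 2 brightest probe sets, and the MVD difference between the treatments one of 0.0441. The block changed no other member call. Of the 5 most alike genes, 1 was kept by Pearson correlation. All 10 member probe sets had a mean level above the 40th percentile of all probe sets, and no measure of background was used.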
